A study of Homo sapiens with 12 samples.

Results

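Genes of the AKR1C family and of the NRF2 pathway were followed in head and neck squamous carcinoma cells in which MUC1 had been silenced. The genes are AKR1C1, AKR1C2, AKR1C3, AKR1B10, NQO1, GCLC, GCLM, TXNRD1, SRXN1 and NFE2L2, taken by symbol, and they are 10 of the 39368 genes counted. They were chosen by their family and pathway after AKR1C2 had shown the largest fall in HSC3 cells treated with DOX among genes of at least moderate level. The HSC3 response of these genes is therefore given as a description, with no p-value and with nothing read from how many passed a threshold. The tests of the response to DOX rest on CAL27 cells, whose values the choice through AKR1C2 did not use. The comparison of the vehicle groups uses HSC3 libraries from the contrast that selected AKR1C2, so it is not independent of the choice. The genes and lists were still chosen with earlier results of these data known, which limits these tests.

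CAL27 and HSC3 are established HPV-negative squamous carcinoma lines of the tongue. Both lines (CAL27/tet-MUC1shRNA, HSC3/tet-MUC1shRNA) carry an inducible vector that makes an shRNA against MUC1 when doxycycline (DOX) is present, and all were grown in serum-supplemented medium. The 4 groups are CAL27 with vehicle (0.1% DMSO), CAL27 with 500 ng/mL DOX, HSC3 with vehicle and HSC3 with 500 ng/mL DOX, each treated for 7 days and each with 3 libraries. CAL27 cells were grown in DMEM and HSC3 cells in MEM, so cell line and medium cannot be told apart. No library from cells with a control shRNA given DOX was analysed here, so a part played by DOX itself was not tested. The labels state culture in triplicate and do not say whether these were separate experiments, so the p-values measure the spread between these libraries.

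Polyadenylated RNA was counted per gene, with 89730914 to 169065103 counts per library. MUC1 fell in both lines with DOX, from a mean of 60.9 to 3.28 CPM (counts scaled to the normalized total of the library) in CAL27 cells and from 1.60 to 0.214 in HSC3 cells, with no overlap between groups in either line (edgeR adjusted p = 1.6e-19 and 0.0002). All 7 squamous epithelial markers (KRT5, KRT6A, KRT14, TP63, CDH1, EPCAM and DSG3) were expressed in both lines. KRT5, KRT6A, KRT14, TP63 and DSG3 were lower and EPCAM was higher with DOX in both. Over the whole list of 17 markers, 9 of 14 tested were lower and 1 higher in CAL27 cells, and 5 of 10 were lower and 2 higher in HSC3 cells. Among all genes tested, 21.8% were lower and 22.6% higher in CAL27 cells, and 15.4% were lower and 13% higher in HSC3 cells. The 10 markers of other cell types summed to between 30.8 and 31.6 CPM in the CAL27 vehicle libraries and to between 21.1 and 24.5 with DOX, from CDH5, COL1A1, COL1A2 and LUM for the most part. In HSC3 cells they summed to between 4.46 and 5.23 CPM with vehicle and to between 5.56 and 9.04 with DOX, mainly from COL1A1, and PTPRC, which marks blood cells, was near 0 in both lines. Of the endothelial markers, CDH5 was at a mean of 16.1 CPM with vehicle and 10.9 CPM with DOX in CAL27 cells and near 0 in HSC3 cells, VWF was at 0.541 CPM or below in every group, and PECAM1 was near 0 in both lines. The part of these shifts in the results was not tested. An estimate of the counts held for each molecule, from the genes with no count, gave 2.45 to 3.33 for CAL27 cells. It gave 4.18 to 7.43 for HSC3 cells with vehicle and 8.93 to 17.2 for HSC3 cells with DOX. Spread between replicates also raises this estimate and was not separated from it.

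NRF2, the product of NFE2L2, is a transcription factor that is held low by KEAP1, which hands it to a CUL3 ubiquitin ligase for destruction. Oxidants and electrophiles release NRF2, which then pairs with a small MAF protein on antioxidant response elements and raises genes for glutathione synthesis, the thioredoxin system, NADPH supply and detoxification. The pathway is often active in squamous carcinomas, and the AKR1C enzymes and AKR1B10 are among the genes that follow NRF2 most closely in human cells. The aldo-keto reductases use NADPH to reduce aldehydes and ketones, among them steroids, prostaglandins and lipid peroxidation products.

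AKR1C1, AKR1C2 and AKR1C3 are neighbours on chromosome 10 (GRCh38, GENCODE v44). AKR1C1 lies at chr10:4963253-4983283 on the plus strand, AKR1C2 at chr10:4987775-5018031 on the minus strand and AKR1C3 at chr10:5035354-5107686 on the plus strand. AKR1B10 lies apart from them, at chr7:134527567-134541412 on the plus strand. The coding sequences of AKR1C1 and AKR1C2 are 98% identical over 969 bases, with 19 mismatches. Those of AKR1C1 and AKR1C3 are 91.4% identical, and AKR1B10 is 56.2% identical to AKR1C1. Of all 50-base words of the AKR1C2 transcript, 47.3% occur in another gene, against 22.7% for AKR1C1, 18.6% for AKR1C3 and 17.2% for AKR1B10. Reads could therefore be lost or shared between AKR1C1 and AKR1C2, and their split is uncertain.

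The likeness extends to the regions upstream of their starts. The 250 bases before the RefSeq start of each (GRCh38.p14) are shown because these paralogs moved together, AKR1C1 from chr10:4963165-4963414 on the plus strand and AKR1C2 from chr10:5003858-5004107 on the minus strand, with capitals for the 4 bases by which AKR1C1 is longer in the alignment. They lie in a repeated stretch, so their exact place is arbitrary, and the first 4 bases of AKR1C1 lie before the start of the AKR1C2 window.
AKR1C1: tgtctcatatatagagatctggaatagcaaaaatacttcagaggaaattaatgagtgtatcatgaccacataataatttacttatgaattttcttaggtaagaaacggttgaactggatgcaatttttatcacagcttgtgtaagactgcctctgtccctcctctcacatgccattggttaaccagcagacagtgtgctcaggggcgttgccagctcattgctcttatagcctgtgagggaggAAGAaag
AKR1C2: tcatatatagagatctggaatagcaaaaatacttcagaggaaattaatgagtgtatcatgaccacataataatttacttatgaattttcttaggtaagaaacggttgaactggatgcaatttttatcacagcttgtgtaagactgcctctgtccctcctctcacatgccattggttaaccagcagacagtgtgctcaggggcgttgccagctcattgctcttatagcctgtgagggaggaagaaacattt
Over the 250 bases before and 50 after the start, AKR1C1 and AKR1C2 matched at 288 positions, with 4 mismatches and 4 gaps (97.3% identity). AKR1C1 and AKR1C3 were 75% identical over the same windows. The RefSeq starts of AKR1C1, AKR1C2 and AKR1C3 lie inside the genes as GENCODE draws them, which reach further upstream. The bases shown for AKR1C1 lie partly, and those for AKR1C2 wholly, within the gene so drawn.

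The same windows were searched on both strands for TGACNNNGC, the core of the antioxidant response element, and for TGANNNNGC, a looser form that includes it. Of 35116 such windows in the genome, 13.3% held the first and 41.8% the second. GCLM and TXNRD1, which has a window at each of 2 starts, held the stricter form. The windows of AKR1C1, AKR1C2, AKR1C3, NQO1, GCLC, SRXN1 and NFE2L2 had no such match, which says only that these letters are not in these windows. AKR1C1 and AKR1C2 shared 1 match to the looser form, 41 and 45 bases before the start. NQO1 had 1 match to the looser form and NFE2L2 had 2, while AKR1C3, GCLC and SRXN1 had none. The matches of AKR1C1, AKR1C2, GCLM and TXNRD1 are shown with 10 bases on each side, the 9 letters in capitals, for the genes that moved in opposite directions in CAL27 cells.
AKR1C1 and AKR1C2: caggggcgttGCCAGCTCAttgctcttat
GCLM: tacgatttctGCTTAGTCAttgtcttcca
TXNRD1, first start: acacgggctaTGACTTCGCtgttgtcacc
TXNRD1, second start: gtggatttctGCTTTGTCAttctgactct
The GCLM match lies 34 bases before its start, and those of TXNRD1 99 and 102 bases before theirs. A further match of TXNRD1 lies 8 bases before its first start. GCLM and the second window of TXNRD1 also hold a further match to the looser form, 8 and 198 bases before the start. Whether the matches go with the direction of change was not tested. AKR1B10 was not searched.

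In CAL27 cells, MUC1 silencing was accompanied by lower AKR1C1, AKR1C2, AKR1C3 and AKR1B10, each by more than 2-fold. The others of the 10 genes changed by less than 2-fold, in both directions. Of the 10 genes, 6 fell and 2 rose at an adjusted p under 0.05 by edgeR's quasi-likelihood test, and 4 fell by more than 2-fold. Over all 19239 genes tested, 21.8% were lower and 22.6% higher, and 5.11% were lower and 1.31% higher by more than 2-fold. The share of these genes that fell by more than 2-fold was thus above the background, while the 2 that rose were in a share close to it. AKR1C1, AKR1C2 and AKR1C3 are paralogs with shared sequence, and AKR1C2 led to the choice. The 4 falls are therefore not independent of each other or of the choice, and nothing further is read from their share. The median log2 fold change was -0.45 over the 10 genes and -0.0052 over all genes tested. In bulk RNA, fewer cells that express a gene and less of its RNA per cell cannot be told apart.

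**Figure D1:**
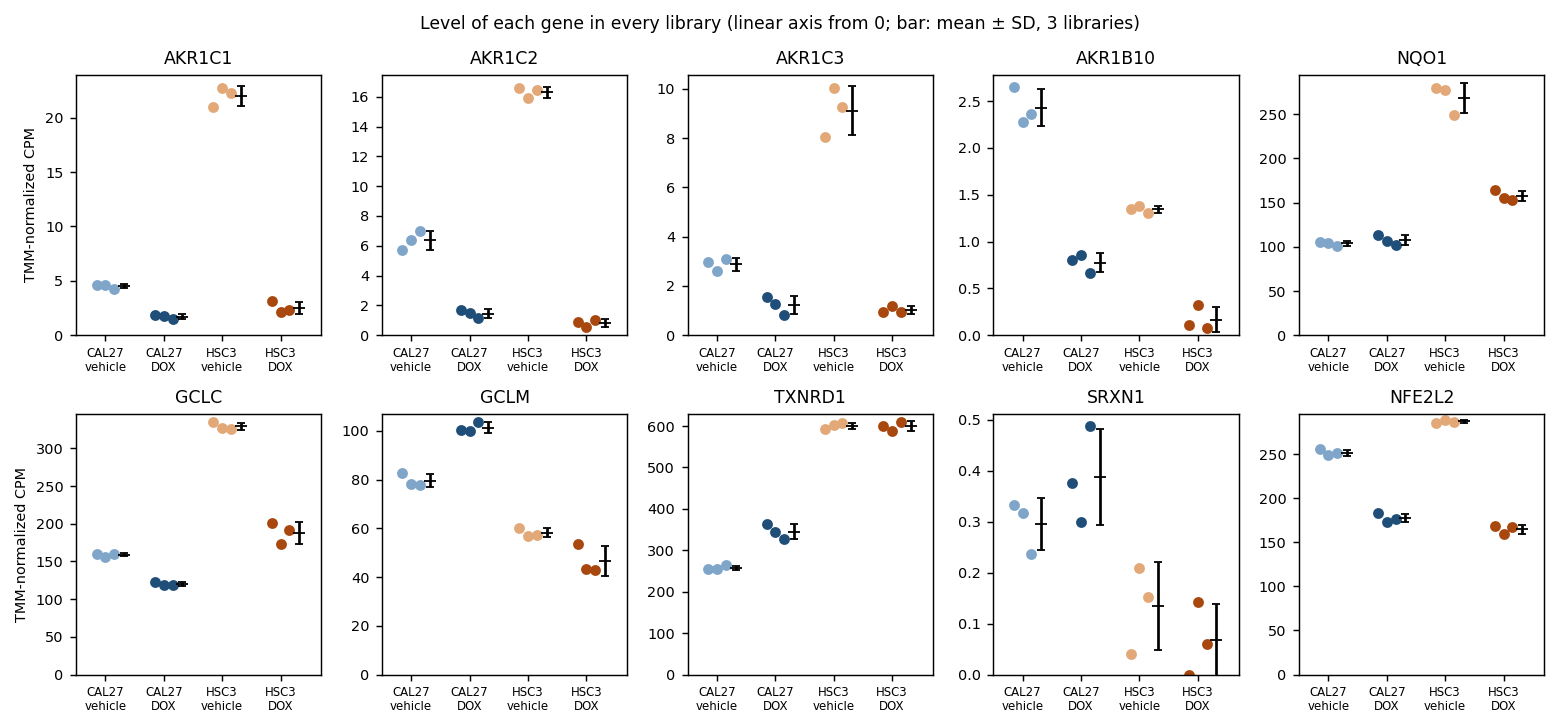
Level of each gene in TMM-normalized CPM (vertical axis, linear from 0, with a scale of its own in each panel) in the 4 groups; each point is 1 library, and the black bar is the mean ± SD of 3 libraries. The AKR1C genes and AKR1B10 drop in both lines with DOX, NFE2L2 and GCLC drop by less, and TXNRD1 is higher with DOX in CAL27 cells and level in HSC3 cells.

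AKR1C2, which inactivates dihydrotestosterone, had the largest fall of the 10 in CAL27 cells. Its level was 5.75, 6.36 and 7.02 CPM in the vehicle libraries and 1.71, 1.47 and 1.13 CPM in the DOX libraries. Every DOX library was below every vehicle library, and 22.4% of the vehicle level was left (log2 fold change -2.16 ± 0.14 SE, edgeR adjusted p = 1.6e-10, n = 3 per group). In HSC3 cells AKR1C2 stood at 16.6, 15.9 and 16.4 CPM with vehicle and at 0.873, 0.529 and 1.04 CPM with DOX, which left 4.98% (log2 fold change -4.33 ± 0.21 SE). This was the value by which the genes were selected, and it ranked first of the 9133 genes whose mean log2 CPM was 3 or more. The next on that ranking were TNS1 at -4.24, NGFR at -3.49, KRT16P6 at -3.13 and AKR1C1 at -3.12. The first place depends on the limit, as AKR1C2 had a mean log2 CPM of 3.1. Among all 18021 genes tested in HSC3 cells it ranked 49 by its fall. Its HSC3 DOX values rest on 144, 78 and 138 counts, few molecules by the estimate of 8.93 to 17.2 counts per molecule.

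AKR1C1, which inactivates progesterone, went the same way in CAL27 cells. It fell from 4.62, 4.63 and 4.28 CPM to 1.89, 1.76 and 1.47 CPM, with no overlap (log2 fold change -1.41 ± 0.13 SE, edgeR adjusted p = 1.7e-08). In HSC3 cells its level was 20.9, 22.7 and 22.2 CPM with vehicle and 3.12, 2.14 and 2.28 CPM with DOX, a log2 fold change of -3.12 ± 0.15 SE. The groups did not overlap in either line.

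AKR1C3 makes testosterone and prostaglandin F from their keto precursors. In CAL27 cells it fell from 2.96, 2.59 and 3.09 CPM to 1.56, 1.26 and 0.838 CPM, again without overlap (log2 fold change -1.25 ± 0.18 SE, edgeR adjusted p = 1.5e-05). In HSC3 cells it was 8.04, 10.0 and 9.28 CPM with vehicle and 0.946, 1.19 and 0.932 CPM with DOX (log2 fold change -3.15 ± 0.17 SE). Every DOX library was below every vehicle library there too.

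AKR1B10 reduces retinal and other aldehydes and was, per length, the least abundant of the 4 reductases in HSC3 cells. In CAL27 cells it fell from 2.65, 2.27 and 2.37 CPM to 0.803, 0.858 and 0.667 CPM, with no overlap (log2 fold change -1.65 ± 0.17 SE, edgeR adjusted p = 1.0e-07). In HSC3 cells it was 1.35, 1.38 and 1.31 CPM with vehicle and 0.109, 0.319 and 0.0752 CPM with DOX. The HSC3 DOX values rest on 18, 47 and 10 counts, few molecules by the estimate of 8.93 to 17.2 counts per molecule. The HSC3 log2 fold change was -2.99 ± 0.51 SE and became -3.84 without HSC3 DOX replicate 2, the highest of the 3 DOX libraries.

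**Figure D2:**
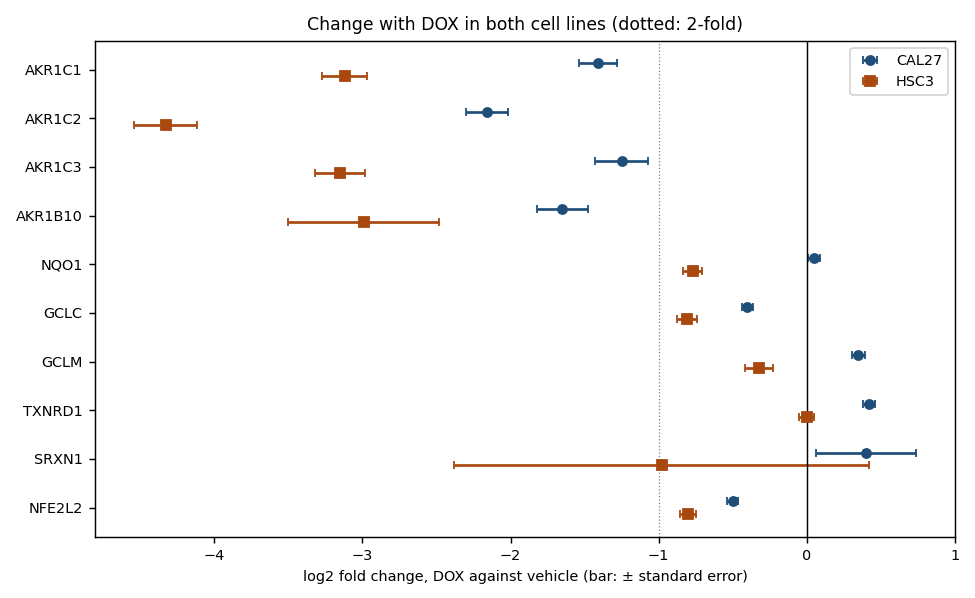
Log2 fold change with DOX against vehicle (horizontal axis) of each gene (vertical axis) in CAL27 and HSC3 cells, fitted on 3 libraries per group; horizontal bars are ± 1 standard error. AKR1C1, AKR1C2, AKR1C3 and AKR1B10 lie beyond a 2-fold fall in both lines, and the other genes within it, with a wide bar for SRXN1 in HSC3 cells.

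The fall was also seen when the split of reads between the near-identical AKR1C1 and AKR1C2 was set aside. With the counts of both summed to 1 gene, the log2 fold change was -1.80 ± 0.11 SE in CAL27 cells (edgeR adjusted p = 3.1e-11) and -3.52 ± 0.14 SE in HSC3 cells. With AKR1C3 added, it was -1.66 ± 0.11 SE in CAL27 cells (edgeR adjusted p = 2.2e-09) and -3.44 ± 0.11 SE in HSC3 cells. The split of the counts between the genes differed with DOX in these libraries, though shared reads leave this split uncertain. Of the counts on AKR1C1, AKR1C2 and AKR1C3 in CAL27 cells, AKR1C2 held 43.1%, 46.8% and 48.8% with vehicle and 33.1%, 32.8% and 32.8% with DOX. All DOX libraries were below all vehicle libraries, with means of 32.9% with DOX and 46.2% with vehicle. The exact two-sided permutation test gave p = 0.1, the smallest that 3 libraries against 3 allow, so it cannot decide whether the split changed. In HSC3 cells the AKR1C2 share was 36.4%, 32.7% and 34.3% with vehicle and 17.7%, 13.7% and 24.4% with DOX. The HSC3 DOX shares rest on 144, 78 and 138 AKR1C2 counts, which by the estimate above stand for few molecules. The AKR1C1 share was 46.3% on average with vehicle and 57.4% with DOX in HSC3 cells, and 32.8% and 39.5% in CAL27 cells.

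**Figure D3:**
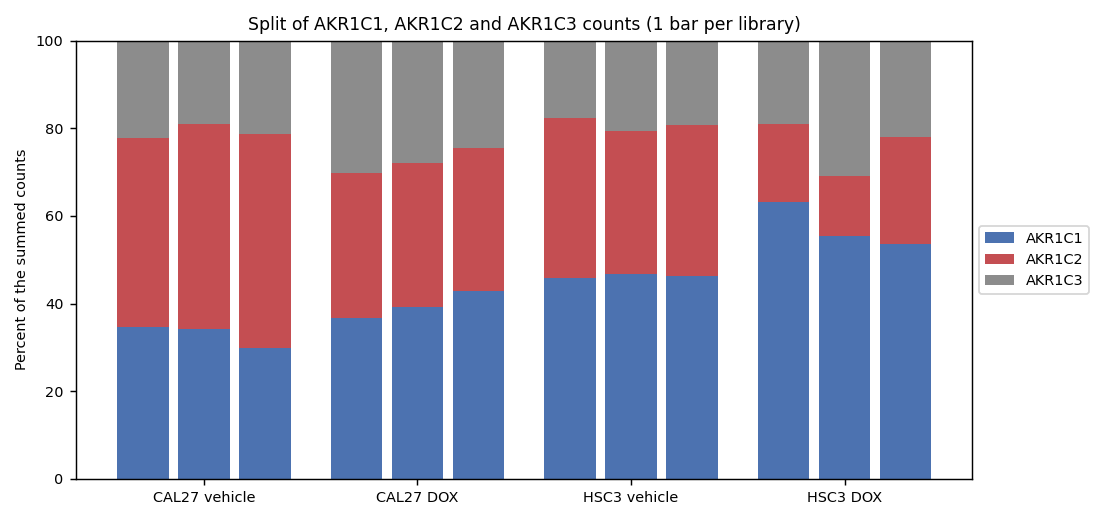
Split of the summed AKR1C1, AKR1C2 and AKR1C3 counts in percent (vertical axis), with 1 stacked bar for each of the 12 libraries by group. The AKR1C2 segment is smaller with DOX in both lines, from a mean of 46.2% to 32.9% in CAL27 cells and from 34.5% to 18.6% in HSC3 cells.

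The other aldo-keto reductases were read as a list of 11 genes. Of the 11 other members listed, 10 were in the tables and 7 were tested in each line. AKR1A1, a general aldehyde reductase, fell in CAL27 cells by 0.44 on the log2 scale (SE 0.067, edgeR adjusted p = 3.5e-05). AKR1B15, the neighbour of AKR1B10 and very similar to it, fell by 1.33 (SE 0.25, edgeR adjusted p = 0.00022) at a mean of 1.14 CPM with vehicle and 0.457 CPM with DOX, and part of its reads could be those of AKR1B10. AKR1B1, AKR1E2, AKR7A2, AKR7A3 and AKR7L had log2 fold changes of -0.03, -0.24, -0.05, -0.10 and 0.42 in CAL27 cells, with edgeR adjusted p between 0.10 and 0.80. In HSC3 cells the log2 fold change was -0.59 for AKR1B1, the reductase of glucose to sorbitol, and -0.15, -0.75, -0.16, -0.10, -0.03 and 0.52 for AKR1A1, AKR1B15, AKR1E2, AKR7A2, AKR7A3 and AKR7L. AKR1C4, the liver member of the AKR1C cluster, was too low to be tested, with a mean of 0.0220 CPM in CAL27 and 0.0829 CPM in HSC3 vehicle libraries.

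The genes around AKR1C2 on chromosome 10 were also read, up to 500 kb away. In CAL27 cells the log2 fold change was -0.07 for NET1, 0.21 for MANCR, 0.55 for LINC00705, -0.40 for AKR1C6P, -0.30 for AKR1C7P and -0.87 for CALML5, with edgeR adjusted p between 0.14 and 0.68. In HSC3 cells, NET1 had a log2 fold change of -0.51, MANCR -1.09, LINC02561 -2.38, LINC00705 0.16, AKR1C6P 0.37, AKR1C7P -1.87 and TUBAL3 -0.57. NET1 stood at 514 CPM with vehicle and 361 CPM with DOX in HSC3 cells, and the others named with it had group means of at most 4.04 CPM.

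NFE2L2 itself fell in CAL27 cells. Its level was 256, 249 and 251 CPM with vehicle and 183, 174 and 176 CPM with DOX, so that no libraries overlapped and 70.6% was left (log2 fold change -0.50 ± 0.038 SE, edgeR adjusted p = 1.1e-09). In HSC3 cells it was 286, 289 and 287 CPM with vehicle and 168, 159 and 167 CPM with DOX (log2 fold change -0.80 ± 0.056 SE). Of its annotated exon bases, 24.8% lie opposite another gene and 13.6% under one on the same strand. The counts are of its mRNA, and the amount of NRF2 protein, which is set largely by its breakdown, was not measured here.

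The subunits of glutamate-cysteine ligase, the rate-limiting enzyme of glutathione synthesis, moved apart in CAL27 cells. GCLC, the catalytic subunit, was 160.1, 156 and 160.2 CPM with vehicle and 123, 119 and 119 CPM with DOX, with no overlap (log2 fold change -0.40 ± 0.037 SE, edgeR adjusted p = 2.5e-08). GCLM, the modifier subunit, rose from 82.7, 78.0 and 77.9 CPM to 100.4, 99.7 and 104 CPM, also without overlap (log2 fold change 0.35 ± 0.041 SE, edgeR adjusted p = 5.4e-07). In HSC3 cells both were lower with DOX in every library. GCLC went from 335, 328 and 326 CPM to 201, 173 and 191 CPM there (log2 fold change -0.81 ± 0.067 SE). GCLM went from 60.3, 56.8 and 57.2 CPM to 53.7, 43.3 and 42.9 CPM (log2 fold change -0.32 ± 0.094 SE), and its adjusted p was no longer under 0.05 when any of 5 of the 6 HSC3 libraries was left out, all but HSC3 DOX replicate 1.

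TXNRD1, the cytosolic thioredoxin reductase, rose in CAL27 cells. Its level was 255, 255 and 264 CPM with vehicle and 363, 344 and 327 CPM with DOX (log2 fold change 0.42 ± 0.041 SE, edgeR adjusted p = 6.1e-08). In HSC3 cells the groups overlapped, at 592, 601 and 607 CPM with vehicle and 601, 588 and 611 CPM with DOX (log2 fold change 0.00 ± 0.053 SE). TXNRD1 was thus the 1 gene of the 10 that was well expressed and whose HSC3 groups overlapped.

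NQO1, a quinone reductase often used as a readout of NRF2, did not pass the test in CAL27 cells. It was 106, 105 and 101 CPM with vehicle and 113, 106 and 102 CPM with DOX, with overlap between the groups (log2 fold change 0.05 ± 0.043 SE, edgeR adjusted p = 0.41). In HSC3 cells it was 279, 278 and 249 CPM with vehicle and 165, 156 and 153 CPM with DOX (log2 fold change -0.77 ± 0.066 SE). The NQO1 gene has 19.4% of its exon bases opposite another gene.

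SRXN1, which repairs over-oxidized peroxiredoxins, was barely counted. In CAL27 cells the vehicle libraries held 42, 31 and 26 counts and the DOX libraries 36, 28 and 57, which overlapped (log2 fold change 0.40 ± 0.34 SE, edgeR adjusted p = 0.38). In HSC3 cells the vehicle libraries held 5, 19 and 20 counts and the DOX libraries 0, 21 and 8. Of its exon bases, 90.7% are also exon of a same-strand readthrough gene in GENCODE v44, so its counts are uncertain and no change was detectable at this depth.

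In HSC3 cells, 8 of the 10 genes were lower with DOX and none higher by edgeR, and 4 were lower by more than 2-fold. The unadjusted p and DESeq2 gave 0 higher as well. Among the 18021 genes tested, 15.4% were lower and 13% higher, and 4.4% were lower and 1.58% higher by more than 2-fold. The genes were selected through AKR1C2 in this same contrast, so nothing is read from these counts. The median log2 fold change was -0.89 over the 10 genes and -0.0097 over all genes tested.

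The changes of the lines were set side by side as the difference of their log2 fold changes, HSC3 minus CAL27, in 1 fit of all 12 libraries. The difference was -2.17 for AKR1C2, -1.90 ± 0.28 SE for AKR1C3, -1.71 ± 0.20 SE for AKR1C1 and -1.34 ± 0.51 SE for AKR1B10. It was -0.82 for NQO1, -0.66 for GCLM, -0.42 for TXNRD1, -0.40 for GCLC, -0.30 for NFE2L2 and -1.37 for SRXN1. At an adjusted p under 0.05, 12.3% of all genes were lower and 8.25% higher in this difference, and 8 of these 10 lower, all but AKR1B10 and SRXN1. The difference holds the HSC3 contrast that selected AKR1C2, so the count is a description and nothing is read from it.

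Before silencing, most of these genes stood higher in HSC3 than in CAL27 cells. Of the 9 genes other than AKR1C2, 6 were higher in the HSC3 vehicle libraries by edgeR's quasi-likelihood test. Of all 20694 genes tested, 6341 were higher at the same threshold. The HSC3 vehicle libraries are part of the contrast that selected AKR1C2, so nothing is read from how many passed. AKR1C1 was higher by 2.56 on the log2 scale (SE 0.14) and AKR1C3 by 1.93 (SE 0.19). They share sequence with AKR1C2, so no p-value is given for them. NQO1 was higher by 1.65 (SE 0.061, edgeR adjusted p = 2.2e-12), TXNRD1 by 1.49 (edgeR adjusted p = 5.8e-13) and GCLC by 1.33 (edgeR adjusted p = 1.4e-11). NFE2L2 was higher by 0.46 (SE 0.046, edgeR adjusted p = 2.7e-07). AKR1C2 was higher by 1.63, given without a test. AKR1B10 (-0.58, edgeR adjusted p = 0.16), GCLM (-0.18, edgeR adjusted p = 0.058) and SRXN1 (-0.88, edgeR adjusted p = 0.41) did not pass the test. Of the 9, 5 were higher by more than 2-fold, against 13.2% of all 20694 genes, and 0 were lower by more than 2-fold, by edgeR's adjusted or unadjusted p and by DESeq2, against 18.7%. The median of all genes in this comparison was -0.12 and became -0.39 when libraries were scaled by their totals alone, so these differences are relative to the scaling.

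Per length of exon, the AKR1C genes were a small part of the pathway's RNA in either line. On the scale of CPM per kilobase of exon (RPKM), the levels in CAL27 vehicle libraries ran in the order TXNRD1 at 34.9, NQO1 at 31.7, GCLC at 16.7, NFE2L2 at 15.3, GCLM at 13.3, AKR1B10 at 1.25, AKR1C2 at 0.951, AKR1C3 at 0.669, AKR1C1 at 0.467 and SRXN1 at 0.106, each apart from the next by more than the SD of either. In HSC3 vehicle libraries NQO1 (99.4 ± 6.48 SD) and TXNRD1 (98.3 ± 1.30 SD) came first and lay within their spread of each other, before GCLC at 42.0, NFE2L2 at 21.1 and GCLM at 11.8. AKR1C2 (2.95 ± 0.0539 SD), AKR1C1 (2.75 ± 0.126 SD) and AKR1C3 (2.56 ± 0.291 SD) followed, of which AKR1C1 and AKR1C3 lay within their spread of each other, and AKR1B10 (0.832) and SRXN1 (0.0583) came last. With DOX in HSC3 cells, AKR1C1 stood at 0.316 RPKM, AKR1C3 at 0.288 and AKR1C2 at 0.147, so that AKR1C2 had gone from the first to the last of the 3. This order with DOX rests on few molecules of AKR1C2 and AKR1C3, by the estimate above. The order within the AKR1C genes depends on the exon length taken for each, which was 8765 bases for AKR1C1, 6086 for AKR1C2 and 3911 for AKR1C3.

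The other NRF2 targets were read as a list of 36 genes. In CAL27 cells all 36 were tested, 11 fell and 8 rose, next to the background of 21.8% lower and 22.6% higher, and their median log2 fold change was -0.033. In 1 fit over all 12 libraries these counts were 5 lower and 4 higher. Only ALDH3A1 and GPX2 fell by more than 2-fold in CAL27 cells. ALDH3A1, an aldehyde dehydrogenase of squamous epithelia, had a mean of 10.8 ± 0.250 CPM (SD, n = 3) with vehicle and 1.80 ± 0.272 CPM with DOX, with no overlap (log2 fold change -2.59 ± 0.11 SE, edgeR adjusted p = 1.9e-13). GPX2, a glutathione peroxidase, went from a mean of 5.40 ± 0.499 CPM to 2.38 ± 0.104 CPM (log2 fold change -1.18 ± 0.11 SE, edgeR adjusted p = 3.9e-08).

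In HSC3 cells 34 of the 36 were tested, 16 were lower and 3 higher, next to 15.4% lower and 13% higher among all genes tested, with a median log2 fold change of -0.32. The 4 that were lower by more than 2-fold were CYP4F11 (-4.49 ± 0.20 SE), NMRAL2P (-2.33 ± 0.27 SE), GPX2 (-1.34 ± 0.29 SE) and EPHX1 (-1.01 ± 0.16 SE). CYP4F11, a fatty acid hydroxylase, was at 9.67 ± 0.736 CPM (SD, n = 3) with vehicle and 0.426 ± 0.0977 CPM with DOX, a fall as deep as that of AKR1C2 at a level below the limit of the ranking. Its HSC3 DOX values rest on 76, 74 and 42 counts, few molecules by the estimate above. In CAL27 cells CYP4F11 went from 35.6 ± 0.661 CPM to 18.8 ± 0.369 CPM (log2 fold change -0.92 ± 0.051 SE, edgeR adjusted p = 1.3e-11). NMRAL2P, a pseudogene whose RNA is induced by NRF2, fell in CAL27 cells by 0.42 on the log2 scale (SE 0.13, edgeR adjusted p = 0.013). EPHX1, the microsomal epoxide hydrolase, fell there by 0.48 (SE 0.046, edgeR adjusted p = 4.8e-08). ALDH3A1 was near 0 in HSC3 cells, with a mean of 0.130 CPM with vehicle.

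**Figure D4:**
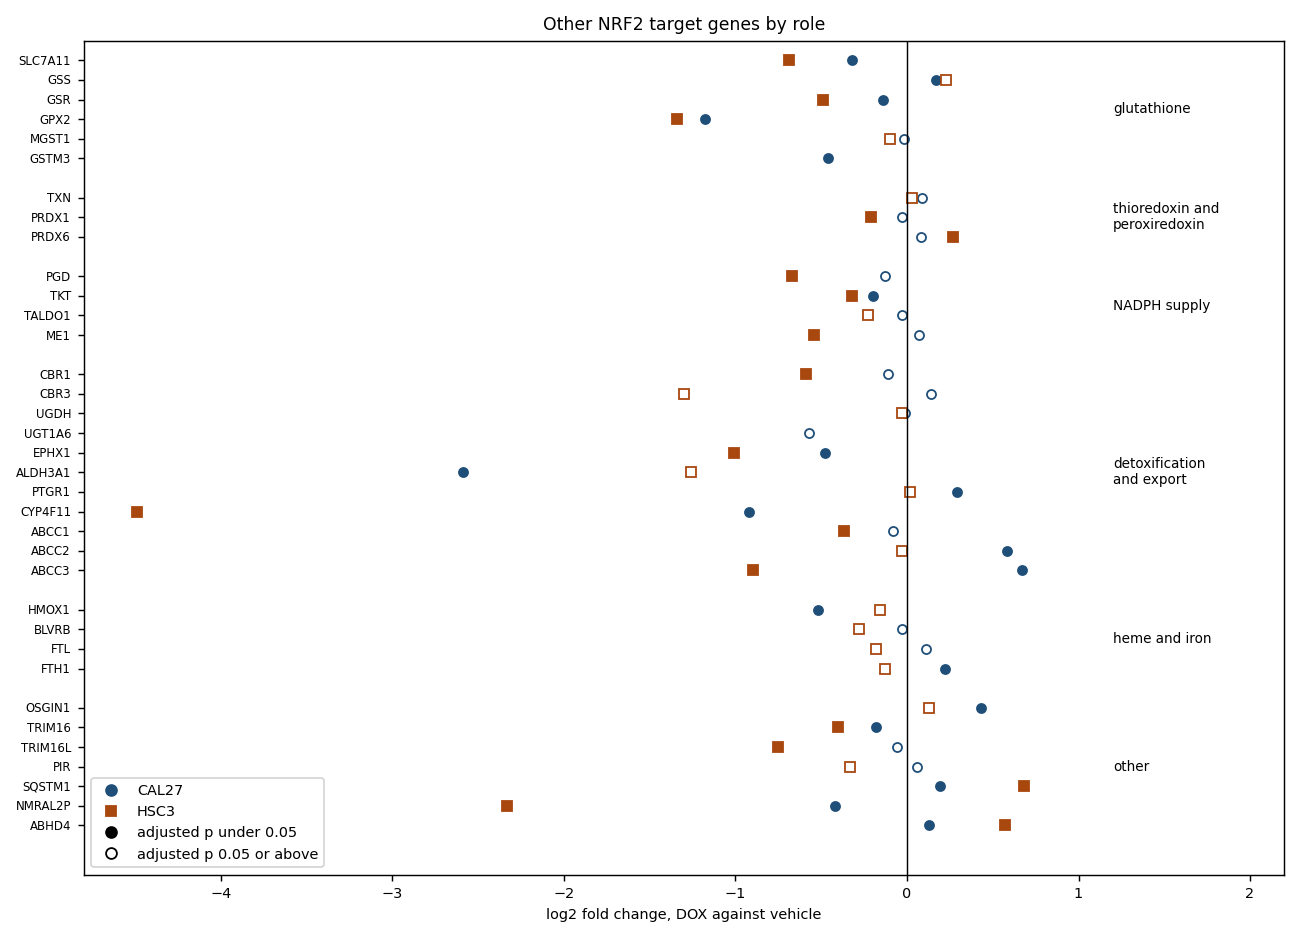
Log2 fold change with DOX against vehicle (horizontal axis) of other NRF2 targets (vertical axis, grouped by role) in CAL27 cells (circles) and HSC3 cells (squares), fitted on 3 libraries per group; filled symbols have an adjusted p under 0.05, and genes too low to be tested have no symbol. CAL27 symbols lie on both sides of 0 and reach -2.59 at ALDH3A1, and HSC3 symbols lie mostly to the left and reach -4.49 at CYP4F11.

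By role, the list is described by its counts, and a difference between roles or lines was not tested. The background was 21.8% lower and 22.6% higher in CAL27 cells, and 15.4% lower and 13% higher in HSC3 cells. Of the 6 glutathione genes in CAL27 cells, SLC7A11, GSR, GPX2 and GSTM3 fell and GSS rose, and in HSC3 cells 3 of the 5 tested were lower. SLC7A11, the cystine importer, was at 95.3 CPM with vehicle and 76.2 CPM with DOX in CAL27 cells (log2 fold change -0.32 ± 0.061 SE, edgeR adjusted p = 0.00055). In HSC3 cells it was at 449 and 279 CPM (log2 fold change -0.69 ± 0.099 SE). Of the 5 genes of NADPH supply, 1 fell in CAL27 cells, the transketolase TKT, by 0.20 on the log2 scale (SE 0.039, edgeR adjusted p = 0.00033). In HSC3 cells PGD (-0.67), TKT (-0.32) and ME1 (-0.54) were lower, while TALDO1 had a log2 fold change of -0.23 and did not pass the threshold.

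Of the 11 genes of detoxification and export in CAL27 cells, EPHX1, ALDH3A1 and CYP4F11 fell and PTGR1, ABCC2 and ABCC3 rose, and in HSC3 cells 5 of the 10 tested were lower. The shares over all genes tested were 21.8% lower and 22.6% higher in CAL27 cells, and 15.4% lower in HSC3 cells. ABCC3, an exporter of conjugates, went in opposite directions in the lines. It rose from 25.1 to 40.1 CPM in CAL27 cells (log2 fold change 0.67 ± 0.054 SE, edgeR adjusted p = 3.0e-09) and was at 92.5 CPM with vehicle and 49.4 CPM with DOX in HSC3 cells (log2 fold change -0.90 ± 0.095 SE), without overlap in either line. Of the 3 thioredoxin and peroxiredoxin genes, the log2 fold changes in CAL27 cells were 0.09 for TXN, -0.03 for PRDX1 and 0.08 for PRDX6, with edgeR adjusted p of 0.23, 0.54 and 0.12. In HSC3 cells the log2 fold change was -0.21 for PRDX1, 0.27 for PRDX6 and 0.03 for TXN. Of the 4 heme and iron genes in CAL27 cells, HMOX1, heme oxygenase, fell by 0.52 on the log2 scale (SE 0.12, edgeR adjusted p = 0.0012) and FTH1, the ferritin heavy chain, rose by 0.22 (SE 0.040, edgeR adjusted p = 0.00013). In HSC3 cells the log2 fold changes were -0.16 for HMOX1 and -0.13 for FTH1. SQSTM1, an autophagy adaptor that binds KEAP1, rose in CAL27 cells (log2 fold change 0.19 ± 0.047 SE, edgeR adjusted p = 0.0028) and was higher in HSC3 cells by 0.68 (SE 0.10).

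Genes that control NRF2 changed by less than 2-fold in both lines. Of the 10 on this list, KEAP1, CUL3, MAFF, MAFG and MAFK rose and BTRC, BACH1 and NFE2L1 fell in CAL27 cells, next to 22.6% higher and 21.8% lower among all genes tested, so that the 3 that fell were in a share near the background. KEAP1 was at 49.1 CPM with vehicle and 60.1 CPM with DOX there (log2 fold change 0.29 ± 0.051 SE, edgeR adjusted p = 8.5e-05), and its log2 fold change was 0.01 ± 0.12 SE in HSC3 cells. CUL3 had a log2 fold change of 0.30 in CAL27 cells (SE 0.036, edgeR adjusted p = 1.1e-06) and of 0.23 in HSC3 cells. MAFF, a small MAF partner, had 0.49 in CAL27 cells (SE 0.082, edgeR adjusted p = 4.8e-05) and -0.32 in HSC3 cells. BACH1, a repressor that competes for the same elements, fell in CAL27 cells by 0.19 on the log2 scale (SE 0.039, edgeR adjusted p = 0.00043) and had -0.28 in HSC3 cells. NFE2L1, a relative of NFE2L2, fell in CAL27 cells by 0.44 on the log2 scale (SE 0.038, edgeR adjusted p = 7.1e-09) and had -0.67 in HSC3 cells. In HSC3 cells RBX1, MAFF, BACH1 and NFE2L1 were lower and CUL3 and NFE2L3 higher, next to 15.4% lower and 13% higher among all genes tested, and these counts of 4 and 2 moved with the processing.

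Over all 12 libraries the pattern of AKR1C2 was closest to that of SLC7A8, an amino acid transporter, by Pearson's correlation of log2 CPM among 9557 genes whose mean log2 CPM was 3 or more (r = 0.990). CYRIB (0.986), BROX (0.985), RHNO1 (0.984) and RABEP1 (0.983) followed. Their log2 fold changes were smaller than those of AKR1C2, with -0.72 and -1.89 for SLC7A8 in CAL27 and HSC3 cells. Among the 10 genes the correlation with AKR1C2 was 0.966 for NFE2L2, 0.962 for AKR1C3, 0.922 for AKR1C1, 0.743 for AKR1B10, 0.674 for GCLC and 0.545 for NQO1, and it was 0.127 for TXNRD1, -0.029 for GCLM and -0.102 for SRXN1. The libraries fall into 4 groups and share their group means, so these values describe the order of the groups and carry no test.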

How the data were processed

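The authors aligned reads from TruSeq Stranded mRNA libraries to GRCh38 and deposited counts per gene symbol for each cell line, not normalized. The submitters' processing notes name FastQC 0.11.9, STAR 2.7.9a, Subread 2.0.1 and featureCounts. The annotation, the use of strand and the treatment of duplicated and multiply mapped reads are not given in the sources used here. In the CAL27 table the numbers of the DOX columns differ from those of the samples, so these 3 columns were assigned to the group without a replicate number.

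Counts were analysed in R 4.3.3 with edgeR 4.0.16 (TMM, filterByExpr at 10 counts and 15 in total, robust quasi-likelihood fit, Benjamini-Hochberg adjustment over all genes tested). Each line was fitted alone, and the vehicle groups and the difference between lines in 1 fit of 12 libraries. Genes were called at an adjusted p under 0.05, and also with a fold above 2. CPM is TMM-normalized within a line, and RPKM uses TMM over all libraries and exon lengths of GENCODE v44, which matched 98.9% of symbols. Promoter windows are from RefSeq (GRCh38.p14). In simulated counts with 200 genes changed by 1.5 on the log2 scale, 99% were recovered for CAL27 (20 of 218 calls were false), 95.5% for HSC3 (12 of 203) and 88% for the difference (6 of 182). The share of false calls was thus above 0.05 for CAL27 and HSC3. Smaller changes, as many of those called here, were not simulated.

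Totals of 89730914 to 169065103 counts limit precision less than the counts per molecule, which were estimated from genes with no count. This estimate was not separated from spread between replicates. No pair of replicates held the same values. Named were the 10 genes, MUC1, listed NRF2 targets and regulators called with a fold above 2 in either line, tested aldo-keto reductases and neighbours of AKR1C2, genes of counts of 5 or fewer, and the 5 genes closest to AKR1C2 in pattern. KEAP1, CUL3, MAFF, BACH1, NFE2L1, SLC7A11 and SQSTM1 were picked for values after these were seen. One gene of the NRF2 target list is counted in the list and not reported here by name. The genes and lists were chosen with earlier results of these data known. Alternatives covered normalization, the filter, DESeq2 1.42.0, thresholds, 1 joint fit, summed paralogs, counts per molecule, the replicate block and each library left out.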

Additional observations from a re-analysis of the deposited data

Results flagged for a closer look

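The response to DOX differed between the lines by more than 2-fold, with the interaction term of edgeR passed, for 9 genes of those examined here. Those examined are the 10 genes other than AKR1C2, the lists of 36 NRF2 targets, 10 regulators, 11 other aldo-keto reductases and 17 markers, the neighbours of AKR1C2, and MUC1. Among all 20694 genes tested, 624 differed that way downward and 454 upward, and nothing is read from the count of 9. The difference, HSC3 minus CAL27 on the log2 scale, was -3.57 (SE 0.16) for CYP4F11, -1.90 (SE 0.33) for NMRAL2P, -1.90 (SE 0.28) for AKR1C3, -1.71 (SE 0.20) for AKR1C1, -1.58 (SE 0.11) for ABCC3, -1.44 (SE 0.49) for CBR3, -1.30 (SE 0.27) for MANCR, 1.02 (SE 0.15) for KRT14 and 1.36 (SE 0.25) for MUC1. Genes with a group in which no library exceeded 3 counts were left out. These differences hold the HSC3 contrast through which AKR1C2 led to the choice of genes. AKR1C2 itself differed by -2.17 and is left out for that reason. CBR3, a carbonyl reductase, was at a mean of 1.02 CPM with vehicle and 0.418 CPM with DOX in HSC3 cells, where the groups overlapped, and its log2 fold change in CAL27 cells was 0.14 (SE 0.17).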

How the results depend on the processing

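No direction of a called value reversed. In CAL27 cells the 6 falls and 2 rises stayed at 6 and 2 without any single library. The 36 NRF2 targets in CAL27 cells were called 5 lower and 4 higher in 1 fit over all 12 libraries, against 11 and 8, and 10 to 13 lower and 7 to 12 higher without single libraries. With a fold above 1.5, 7 of the 10 genes were lower in HSC3 cells, against 4 above 2. In HSC3 vehicle against CAL27 vehicle libraries, 0 of the 10 genes were lower by edgeR, 1 at an unadjusted p under 0.05, 1 with DESeq2's size factors, without a filter or by DESeq2, 2 with library totals or counts per molecule, and 0 to 2 without single libraries, and these were GCLM and AKR1B10. Of the HSC3 regulators, 2 were higher, and 1 with library totals, 4 by DESeq2 or in 1 fit over all 12 libraries, 0 at an adjusted p under 0.01, 0 with the replicate block and 0 to 3 without single libraries. Those lower were 4, and 1 at an adjusted p under 0.01 and 2 to 4 without single libraries. The AKR1B10 difference between the lines was -1.34 and became -2.18 without HSC3 DOX replicate 2, the DOX library with the highest AKR1B10. It was not called in the main fit and was called in 2 of 17 alternatives. The difference holds the HSC3 contrast, so nothing is read from these calls. The cause of these shifts was not tested.

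The replicate numbers of the HSC3 libraries did not pair them (r = -0.206, 0.352 and -0.352 for equal numbers). With the replicate number as a block the HSC3 log2 fold change of AKR1C2 was -4.36, 8 of the 10 genes were lower, and the NRF2 targets stayed at 16 lower and 3 higher. CAL27 DOX columns carry no replicate number, so no block could be fitted there. Depth limits SRXN1 in both lines. With DOX in HSC3 cells it also limits AKR1B10, AKR1C2, AKR1C3 and CYP4F11, among others.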
